A study of Mus musculus with 17 samples.

Results

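Secretoglobins are small secreted proteins, and 8 of their genes are described here in mouse lacrimal gland, the gland that makes the watery part of tears, and in organoids grown from it. The 8 were picked by symbol: the alpha subunit genes Scgb1b2, Scgb1b7 and Scgb1b20, the beta/gamma subunit genes Scgb2b2, Scgb2b7, Scgb2b24 and Scgb2b27, and Scgb2a2. They are 8 of the 29 Scgb genes among 38293 gene IDs in the table of tissue and uncloned organoids, and 8 of the 69 among 55487 in the table of clones. Since several are close copies of each other, their summed counts are given too. Polyadenylated RNA was sequenced from 17 libraries in 7 groups. The first table holds wildtype lacrimal gland (n = 3) and uncloned wildtype organoids in expansion medium (EM, n = 3) or differentiation medium (DM, n = 3), all numbered 6, 7 and 8 by line. EM organoids had 7 days of EM, and DM organoids 2 days of EM and then 5 days of DM. The second table holds clonal organoid lines, 2 wildtype (WT) and 2 with the label Pax6 KO, in both media (n = 2 per group). For these the labels give 5 or 7 days in DM, depending on the field read. Each clone counts as 1 replicate of its label, and the labels give neither the sex nor the age of the animals.

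The Scgb1b and Scgb2b genes encode the alpha and the beta/gamma subunits of mouse androgen-binding proteins. An alpha chain is joined by disulfide bonds to a beta or gamma chain, and the pair forms a pocket that can hold a small lipophilic molecule such as a steroid. These proteins are known from mouse saliva and tears, and in most pairs an alpha gene sits beside a beta/gamma gene of the same number in a large cluster on chromosome 7. Scgb2a2 lies outside that cluster and is the mouse relative of human mammaglobin A. Scgb1b27, Scgb2b26 and Scgb2b27 are known as the subunit genes of the salivary form.

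Libraries held 12801473 to 19207469 counts in the first table and 18282059 to 22500534 in the second. The 10 most abundant genes took 65.5% to 67.6% of gland counts and 5.96% to 6.72% of counts in uncloned organoids. Of 8 salivary gland markers, Bpifa2, Smgc, Muc19, Prol1 and Smr3a were at 0 in every gland library. The summed acinar markers (10 genes, among them Lpo, Car6, Mucl2 and Obp1a) took 303500 to 318300 CPM (counts per 1000000 total counts) in the glands, 280 to 299 in EM and 414 to 593 in DM. Mucl2 and Obp1a gave most of the gland sum, and in CPM not every gene of the list followed it. Pigr is the receptor that carries antibodies into secretions. It had 302 to 479.5 CPM in the glands, 248.5 to 265 in EM and 295 to 476 in DM. Rab27b, a regulator of exocytosis, had 30.4 to 45.2, 21.6 to 27.4 and 70.8 to 78.9. CPM are shares of total counts, so the 10 most abundant genes lower the CPM of all others in the glands. On the TMM scale, explained below, Pigr and Rab27b stood below gland in both media. Summed duct and basal keratins with Trp63 ran opposite to the acinar sum. They took 391 to 415 CPM in the glands, 10660 to 11440 in EM and 14780 to 18570 in DM. Pax6, the gene targeted in the clones, had 213 to 280 CPM in the 4 WT clone libraries and 138 to 299 in the 4 libraries labelled Pax6 KO. Counts per gene do not show whether its transcript is intact, so they do not check the labels. The Y-linked transcripts Ddx3y, Kdm5d, Eif2s3y and Uty were at 0 in all 9 libraries of the first table. Its glands and organoids were alike in that respect. Xist, also sex-linked, had 176 to 203 CPM in the glands, 1282 to 1514 in EM and 1426 to 1466 in DM. The gap was smaller on the TMM scale, with log2 differences from gland of 0.86 ± 0.10 (SE) in EM and 0.96 ± 0.10 in DM. In the clones Xist had 724 to 1157 CPM.

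Some of the 8 genes have near-identical partners. Scgb1b20 and Scgb1b7 share 98.9% of their 279 coding bases, and the beta/gamma genes Scgb2b7 and Scgb2b20 share 98.2% of 336. Counts of these 4 genes can be exchanged in counting. To show how alike such copies are, the beta/gamma pair is given from coding base 61 to 240, from the GENCODE M21 transcripts on GRCm38; capitals mark the bases that differ, and this stretch holds all 6 differences of the pair.
Scgb2b7: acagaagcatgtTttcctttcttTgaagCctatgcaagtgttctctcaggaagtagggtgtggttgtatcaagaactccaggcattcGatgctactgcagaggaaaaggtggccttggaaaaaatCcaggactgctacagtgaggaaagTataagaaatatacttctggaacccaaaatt
Scgb2b20: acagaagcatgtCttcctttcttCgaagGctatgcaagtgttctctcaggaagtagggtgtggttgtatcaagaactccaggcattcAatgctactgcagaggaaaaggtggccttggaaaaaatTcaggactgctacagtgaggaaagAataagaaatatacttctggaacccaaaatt

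Other members were farther apart. Scgb1b2 shared 84.2% of aligned coding positions with Scgb1b20, and Scgb2b24 shared 65.5% to 72.2% with Scgb2b27, Scgb2b2 and Scgb2b7. To show which counts rest on unique sequence, every 50-base stretch of a gene's transcripts was looked up in all other annotated transcripts. For Scgb1b7, 77.3% of such stretches also occurred elsewhere, mainly in Scgb1b29, and for Scgb1b20 the share was 57.5%, mainly with Scgb1b7. It was 29.6% for Scgb2b7, 4.85% for Scgb2b2, 2.13% for Scgb1b2 and 1.86% for Scgb2b27. None were shared for Scgb2b24 or Scgb2a2. Levels of Scgb1b7, Scgb1b20 and Scgb2b7 are therefore uncertain within their copy groups. Exchange between members leaves the sum of the 8 as it is. Scgb2b20 and Scgb1b29, the main partners of Scgb2b7 and Scgb1b7, lie outside that sum. The treatment of reads with several matches is not given, and if they were dropped the sum lacks them too. Scgb2b2 and Scgb1b2 also overlap by 55 exonic bases on opposite strands, and whether counting used strand is not given in the sources used here.

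Among the alpha genes, Scgb1b2 was the most abundant of all 8 in tissue. Glands 6, 7 and 8 held 974296, 872297 and 1171032 counts of it, or 6.71%, 6.17% and 6.10% of all counts. In the 3 EM libraries of the same lines it had 0, 1 and 12 counts, and in DM 8, 6 and 0. Gland and organoid values did not come near each other, while EM and DM overlapped. Scgb1b20 had 214347, 182183 and 316927 counts in the glands, 0 in each EM library, and 1, 4 and 0 in DM. Its near copy Scgb1b7 was lower in every gland, at 31200, 31664 and 49313 counts, with 0 in each EM library and 0, 1 and 0 in DM.

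Among the beta/gamma genes, Scgb2b2 and Scgb2b24 led. Scgb2b2 had 828465, 737244 and 960238 gland counts (5.70%, 5.21% and 5.00% of the total), against 1, 3 and 8 in EM and 12, 10 and 3 in DM. Scgb2b24 had 562686, 543482 and 729010 gland counts, against 0, 0 and 5 in EM and 7, 4 and 0 in DM. It was the steadiest of the 8 between glands, at 3.84% ± 0.0392 of counts (SD, n = 3). Scgb2b7 had 167104, 149002 and 268075 counts in the glands, 1, 0 and 1 in EM, and 1, 1 and 0 in DM. Scgb2b27, the gene known from saliva, stood far below the rest with 54, 90 and 49 gland counts and none in any organoid library. By gland counts Scgb1b2, Scgb2b2 and Scgb2b24 ranked 4, 5 and 7 among all genes, and Scgb2b27 ranked 8115.

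Scgb2a2 was present at a middle level. It had 8078, 7911 and 10251 gland counts, or 0.0556%, 0.0559% and 0.0534%. EM libraries held 1, 8 and 5 counts and DM libraries 1 in each, which sum to 14 in EM and 3 in DM. Scgb2b24 had 5 and 11 there, although the 3 glands held 1835178 counts of Scgb2b24 and 26240 of Scgb2a2.

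**Figure D1:**
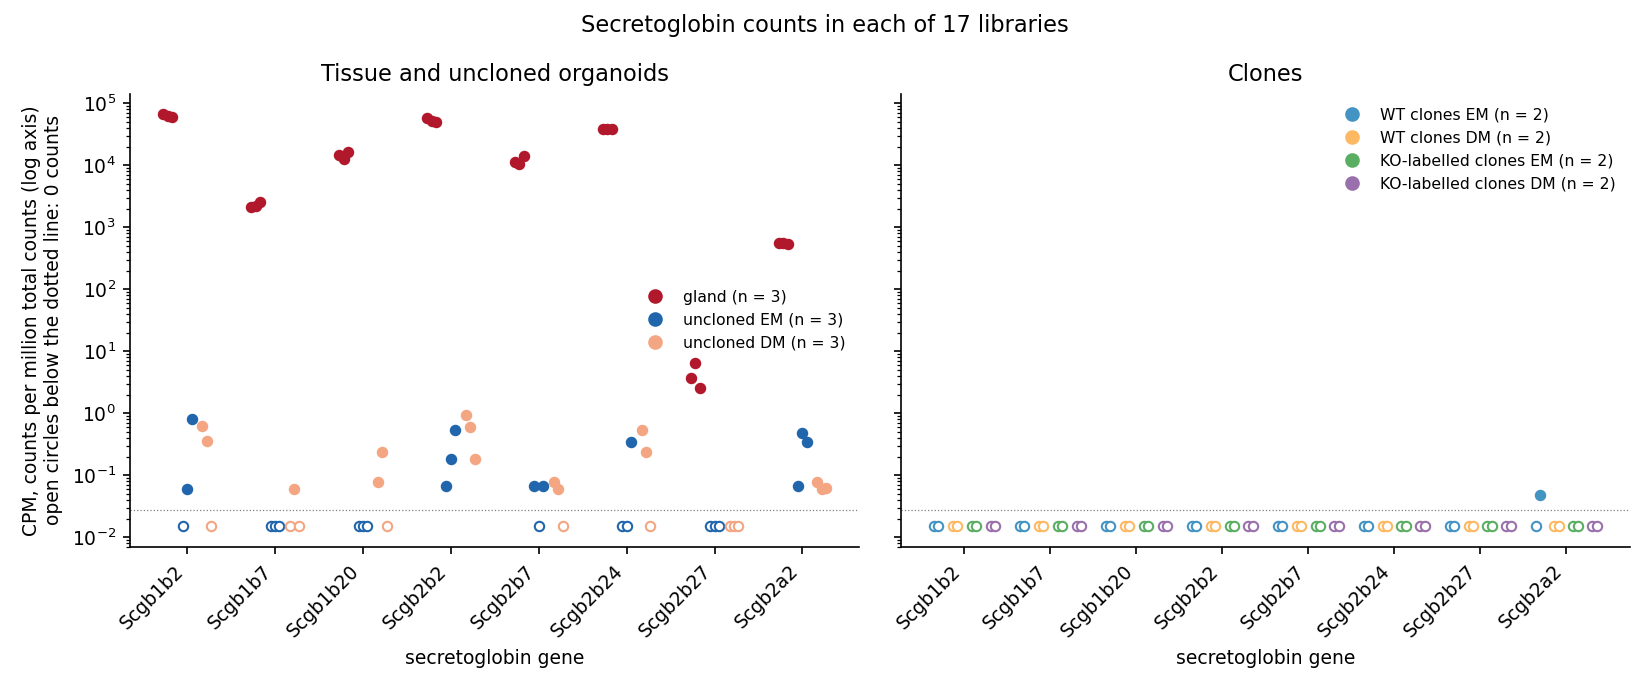
CPM (log axis) of each of the 8 secretoglobins, 1 point per library, in tissue and uncloned organoids (left) and clones (right); open circles below the dotted line are libraries with 0 counts. Gland points lie above every organoid point for all 8 genes, and in the clones a single library has a single Scgb2a2 count.

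The 8 genes together made up 19.2%, 17.8% and 18.2% of all counts in glands 6, 7 and 8, or 18.4% ± 0.685 (SD, n = 3). All 29 Scgb genes of that table made up 21.0%, 19.4% and 20.3%. Within the sum, Scgb1b2 took 33.4% to 35.0%, Scgb2b2 27.4% to 29.7% and Scgb2b24 20.2% to 21.5%. Scgb1b20 took 7.22% to 9.04%, and Scgb2b7 5.90% to 7.65%. Scgb1b7 took 1.12% to 1.41%, Scgb2a2 0.290% to 0.313%, and Scgb2b27 at most 0.00357%.

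Levels of different genes were compared as CPM per kb of exonic length, a scale for levels only. On it, Scgb1b2 stood at 149139 ± 7868 and Scgb2b2 at 90526 ± 6155 (SD, n = 3 glands for these and the next values). Scgb2b24 followed at 73366 ± 749 and Scgb1b20 at 34945 ± 4300. Lower still were Scgb2b7 at 12791 ± 1881 and Scgb1b7 at 5532 ± 527. Scgb2a2 reached 497 ± 12.6, and Scgb2b27 2.68 ± 1.24. No neighbours in this order overlapped between glands, and the order was the same per coding length, where Scgb1b2 stood at 226649 ± 11960 and Scgb2b27 at 12.5 ± 5.81. Spread differed by gene: Scgb2b24 and Scgb2a2 had coefficients of variation of 1.02% and 2.54%, Scgb1b2 and Scgb2b2 of 5.28% and 6.80%. The near copies Scgb1b7, Scgb1b20 and Scgb2b7 had 9.53%, 12.3% and 14.7%, and Scgb2b20 14.9%. As shares of counts, these 4 genes were highest in gland 8, whereas Scgb1b2, Scgb2b2 and Scgb2b24 were highest in gland 6 and lowest in gland 8.

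**Figure D2:**
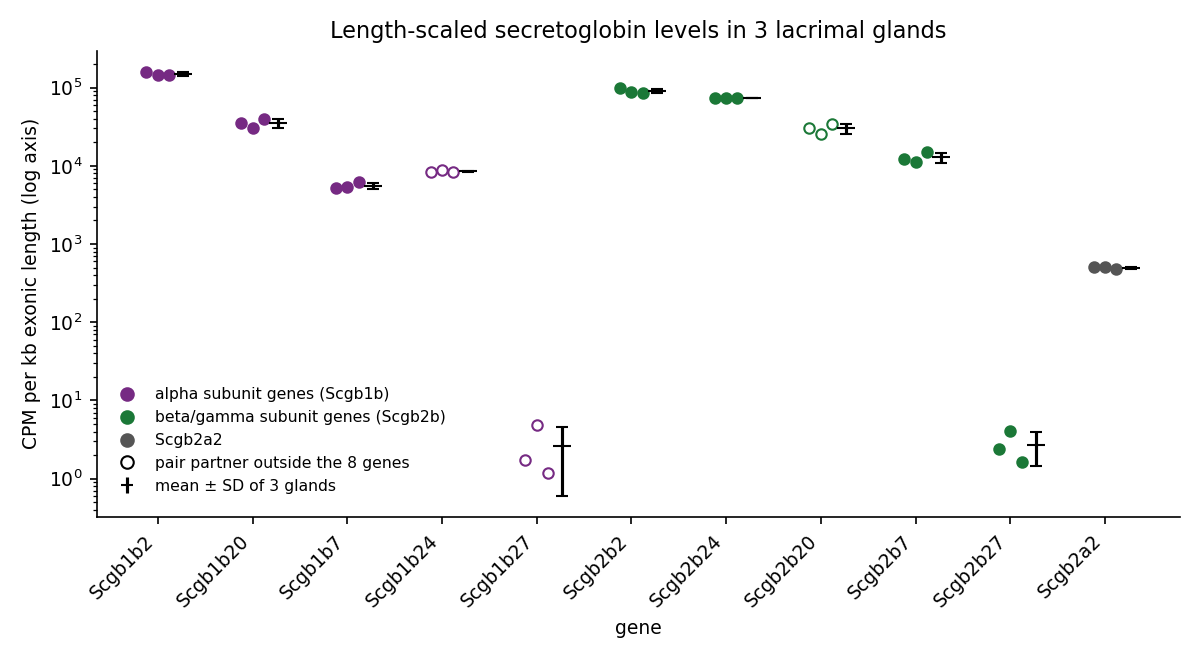
Level in CPM per kb exonic length (log axis) of the 8 genes (filled) and of their same-numbered partners outside the 8 (open) in the 3 glands, with mean ± SD to the right of each set. Scgb1b2 is highest at 149139 and Scgb2b27 lowest among the 8 at 2.68.

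Since an alpha chain pairs with a beta or gamma chain, the same-numbered neighbours were compared. For number 2, the alpha gene Scgb1b2 stood 1.65 ± 0.0322 times as high per kb as Scgb2b2 (SD, n = 3 glands). For number 20, Scgb1b20 stood at 1.17 ± 0.0401 times Scgb2b20, which is not among the 8 and had 233322, 186161 and 341471 gland counts. Numbers 7 and 24 leaned the other way, with the beta/gamma gene higher in all 3 glands. Scgb2b7 stood at 2.31 ± 0.179 times Scgb1b7, and Scgb2b24 at 8.69 ± 0.225 times Scgb1b24, whose gland counts were 33947, 34391 and 44234. Per coding length, an alternative chosen after seeing the data, these last 2 ratios were 4.29 ± 0.333 and 13.4 ± 0.346. Of 50-base stretches, 77.3% for Scgb1b7 and 29.6% for Scgb2b7 also occur in other transcripts. How far this shapes the number 7 ratio was not tested. The annotated transcript of Scgb1b24 spans 279 bases, of which 276 are coding, so its exonic length lacks nearly all untranslated sequence. For number 27, Scgb1b27 had 25, 69 and 23 gland counts beside the 54, 90 and 49 of Scgb2b27, both highest in gland 7.

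Pair by pair the subunits were unequal, but their sums were close. All Scgb1b genes of the first table together reached 206780, 190178 and 197439 CPM per kb in glands 6, 7 and 8. All its Scgb2b genes reached 214354, 198823 and 206760. Cluster genes that this table does not list have no gland value and are not in these sums. The alpha sum over the beta/gamma sum was 0.965, 0.957 and 0.955, a mean of 0.959 ± 0.00523 (SD, n = 3). With coding lengths it was 0.843 ± 0.00749, and in both cases the alpha sum was the lower one in 3 of 3 glands. Scgb1b2 made up most of the alpha sum, and Scgb2b2 with Scgb2b24 most of the beta/gamma sum.

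**Figure D3:**
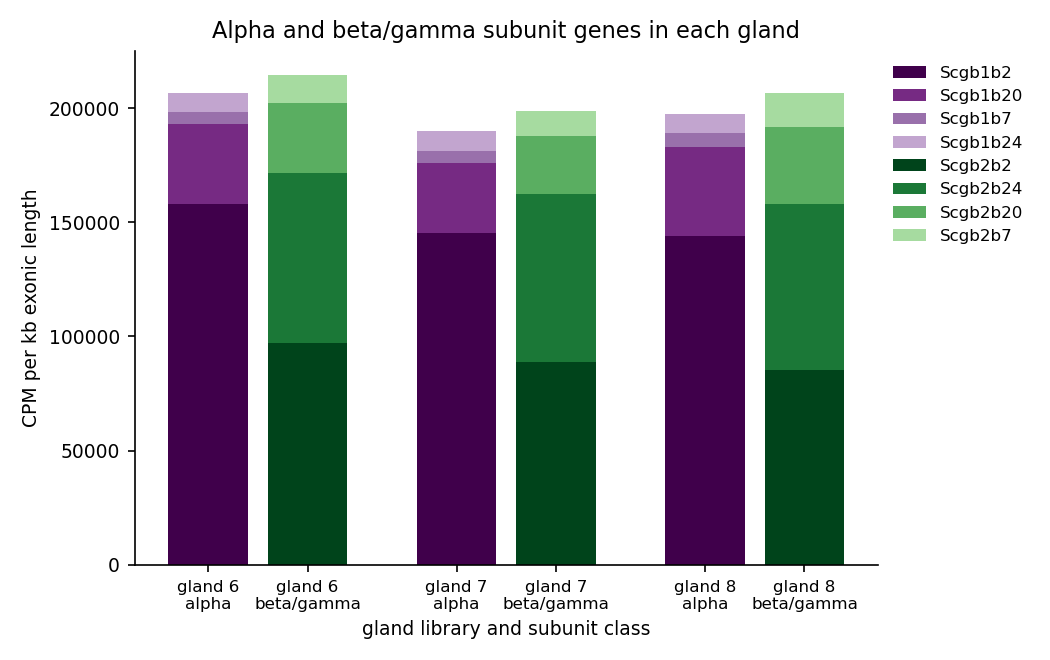
Stacked bars of CPM per kb exonic length for the 4 most abundant alpha genes and the 4 most abundant beta/gamma genes in each gland library. The paired bars of a gland differ little in height, with alpha sums of 190178 to 206780 and beta/gamma sums of 198823 to 214354. These sums run over all genes of each class that the table of tissue and uncloned organoids lists.

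The 7 members on chromosome 7 are spread through the cluster, which holds 64 annotated Scgb1b and Scgb2b genes, 35 of them pseudogenes, on GRCm38 in GENCODE M21. The first table lists 24 of these 64. Scgb2b2 (chr7:31290508-31304977, plus strand) and Scgb1b2 (chr7:31290519-31291821, minus strand) lie at its start. Scgb2b7 (chr7:31703779-31705757, minus) and Scgb1b7 (chr7:31712665-31713978, plus) follow, and Scgb1b20 (chr7:33373234-33374559, plus), Scgb2b24 (chr7:33737190-33739312, minus) and Scgb2b27 (chr7:34011921-34013942, minus) lie toward the other end. Scgb2a2 is at chr19:9847562-9852808 on the plus strand. Among the listed genes, high and low ones alternate along the cluster, and the genes not listed have no gland value. Between the abundant genes, Scgb1b3 had 73, 47 and 131 gland counts, Scgb1b19 23, 38 and 39, Scgb2b19 43, 22 and 29, and Scgb1b29 158, 200 and 262. Of the salivary subunit genes, Scgb2b26 had 1 to 3 counts per gland. Of the 29 Scgb genes, 23 had a count in a gland.

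**Figure D4:**
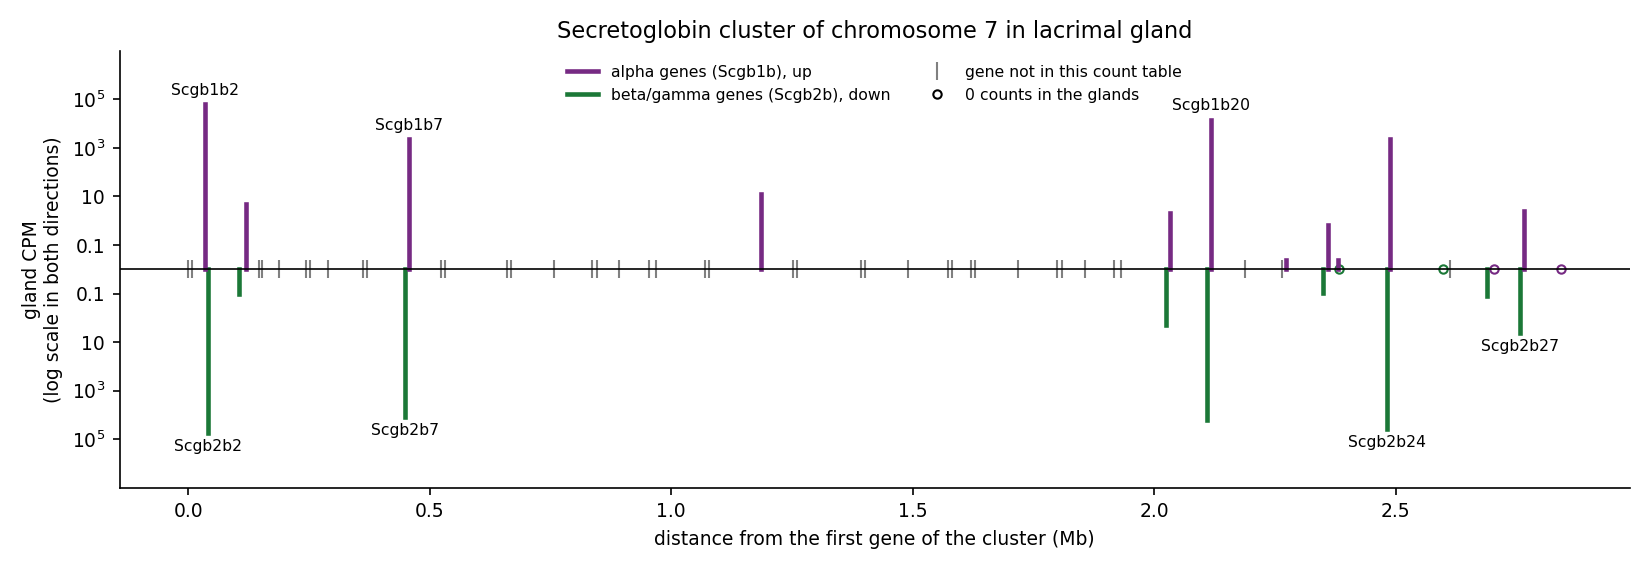
Mean gland CPM (log scale in both directions, n = 3) along the chromosome 7 cluster by distance from its first gene in Mb, alpha genes upward and beta/gamma genes downward; grey ticks are annotated genes that the table of tissue and uncloned organoids does not list. The abundant genes among those listed stand as neighbouring alpha and beta/gamma pairs, with Scgb2b27 near the right end at 4.21 CPM. The long stretches between the pairs also hold genes that are not listed and have no value.

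Since the members fell together in culture, as given below, the sequence upstream of their start sites was looked at. RefSeq's promoter table (GRCm38.p6) had an entry for 6 of the 8, and Scgb1b7 and Scgb1b20 are not in it. The 120 bases before the RefSeq start are shown on the gene's strand, with TATAAA in capitals when it reads on either strand (TTTATA is its reverse complement). The first 4 genes are abundant in the gland, and the last 2 are the lowest members.
Scgb1b2: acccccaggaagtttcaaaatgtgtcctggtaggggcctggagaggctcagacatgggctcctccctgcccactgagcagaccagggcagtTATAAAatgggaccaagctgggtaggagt
Scgb2b2: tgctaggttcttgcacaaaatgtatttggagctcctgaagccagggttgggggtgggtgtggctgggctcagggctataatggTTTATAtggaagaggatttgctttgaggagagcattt
Scgb2b24: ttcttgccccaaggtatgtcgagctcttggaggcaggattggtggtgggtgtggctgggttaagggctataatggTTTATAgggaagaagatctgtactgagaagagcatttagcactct
Scgb2b7: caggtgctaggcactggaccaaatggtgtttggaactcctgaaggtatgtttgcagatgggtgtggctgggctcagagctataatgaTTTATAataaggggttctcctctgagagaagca
Scgb2a2: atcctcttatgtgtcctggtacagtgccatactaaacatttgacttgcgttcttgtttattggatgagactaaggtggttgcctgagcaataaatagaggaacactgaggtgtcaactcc
Scgb2b27: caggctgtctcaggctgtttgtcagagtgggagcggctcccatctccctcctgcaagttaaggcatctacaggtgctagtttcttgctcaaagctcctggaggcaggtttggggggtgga

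These stretches are chr7:31291817-31291936 (minus strand) for Scgb1b2, chr7:31302649-31302768 (plus) for Scgb2b2, chr7:33739296-33739415 (minus) for Scgb2b24 and chr7:31705755-31705874 (minus) for Scgb2b7. They are chr19:9847438-9847557 (plus) for Scgb2a2 and chr7:34013943-34014062 (minus) for Scgb2b27. Each of the 4 abundant members held 1 match to TATAAA on one strand or the other. The match began 29 bases before the RefSeq start in Scgb1b2, 37 in Scgb2b2, 45 in Scgb2b24 and 33 in Scgb2b7. Scgb2a2 and Scgb2b27 held no exact match, and near variants of the motif were not counted in any gene. Among all 32851 promoters of the table, 6.34% held this motif on either strand in the same 120 bases and 4.19% on the gene's strand. In Scgb1b2 the match read on the gene's strand, and in the Scgb2b genes it read as the reverse complement. Also searched, on both strands in 250 bases, was the motif AGAACA, the core letters of a half-site of androgen and glucocorticoid receptors. It occurred 2 times in Scgb2b2, once in Scgb2b24 and in Scgb2b7, and in none of the other 3, against 16.1% of all promoters. CATATG, an E-box sequence that is its own reverse complement, occurred in none of the 6, against 3.46% of all promoters. A match describes letters in a window and shows no binding. Promoter windows of 2 members aligned at 72.7% identity for Scgb2b24 with Scgb2b2 and 71.0% for Scgb2b2 with Scgb2b7, and at 41.6% for Scgb2b2 with Scgb2a2. The start of Scgb2b2 in RefSeq, 31302769, is not the first base of its GENCODE gene, 31290508. The GENCODE starts of Scgb2b24 (33739312), Scgb1b2 (31291821) and Scgb2b7 (31705757) lie inside the windows shown. Counted from those starts, their matches lie nearer.

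The comparison of organoids with tissue asks how far the cultures keep the transcripts of the gland. In EM, the summed counts of the 8 genes were 3, 12 and 31 for lines 6, 7 and 8, against 2786230, 2523873 and 3504895 in the glands. The family sum was lower in EM by a log2 difference of -19.53 ± 0.78 (SE; edgeR quasi-likelihood test, adjusted p = 1.99e-09, lower in 3 of 3 lines). In DM the sums were 30, 27 and 4, and the log2 difference from gland was -19.02 ± 0.77 (edgeR, adjusted p = 1.92e-09, lower in 3 of 3 lines). Log2 differences are on the TMM scale (trimmed mean of M-values, which scales libraries to a common body of genes). In bulk RNA, fewer cells of a type and less RNA per cell cannot be told apart. Scaling matters for the size: with total counts in place of TMM factors the median of all genes moved from 0.01 to 2.06 in EM and from 0.02 to 1.98 in DM, and the family sums stood at -17.48 and -17.05. The same change turned 5130 higher and 5129 lower calls over all genes in EM into 11493 and 1302, and 5223 and 5135 in DM into 11516 and 1271.

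All 8 members were called lower in EM than in gland, where 37.4% of the 13713 genes tested were called lower. All 8 were also called lower in DM, against 37.4% again. They passed the filter on low counts through the gland, so these counts had to come out this way and carry no weight of their own. In both comparisons the groups of every member were apart, against 39.2% of genes lower and apart in EM and 38.0% in DM. The members' median log2 difference was -19.75 in EM and -18.69 in DM, beside 0.01 and 0.02 over all genes. With the members at 0 set to their bounds on the same TMM scale the median was -19.71 in EM and -18.69 in DM.

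By gene in EM, Scgb2b24 stood at -20.35 ± 0.58, Scgb1b2 at -19.78 ± 0.67 and Scgb2b2 at -19.64 ± 0.51 (log2 difference from gland ± SE). Folds and bounds of the members with 3 counts or fewer are given on total counts, where they are smaller than with TMM factors. Scgb2b7, with 2 counts in all, was 280941-fold lower in share of counts, with an exact 95% counting interval of 77772 to 2319830. Scgb1b20 and Scgb1b7 had no count in EM, and from 3 counts over the group they were at least 228741-fold and at least 35965-fold lower. The same bound is only 61.9-fold for the scarce Scgb2b27. On the TMM scale Scgb2a2 stood at -12.83 ± 0.23, the smallest fall among the members with a value and not a bound.

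In DM, Scgb1b2 stood at -19.58 ± 0.67, Scgb2b24 at -19.19 ± 0.56, Scgb1b20 at -18.88 ± 0.41 and Scgb2b2 at -18.51 ± 0.48 (log2, TMM scale). On total counts, Scgb2b7 was 279106-fold lower, with an exact counting interval of 77264 to 2304670. Scgb1b7, from 1 count, was 107190-fold lower (19238 to 4233820). Scgb2a2, from 3 counts, was 8358-fold lower (2860 to 40531). Scgb2b27 was at least 61.5-fold lower. Adjusted p-values of the 8 members in these 2 comparisons were at most 1.51e-05 (edgeR). Another 7 Scgb genes passed the filter, namely Scgb1b3, Scgb1b19, Scgb1b24, Scgb1b27, Scgb1b29, Scgb2b19 and Scgb2b20, and all 7 were called lower in both media, against the same 37.4% of all genes. They too passed through the gland, so this count carries no weight either. Scgb2b20 had 0, 0 and 4 counts in EM and 2, 3 and 0 in DM, and Scgb1b24 had none in EM and 2, 0 and 0 in DM.

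The few organoid counts were set beside what the gland held, again on total counts. As parts per 1000000 (ppm) of a gene's share of gland counts, EM organoids kept 4.48 ppm for Scgb1b2, 4.94 for Scgb2b2, 2.83 for Scgb2b24 and 3.56 for Scgb2b7. In DM these were 4.86, 10.4, 6.27 and 3.58 ppm, and Scgb1b20 kept 7.33 ppm. For Scgb2a2 the value was 555 ppm in EM and 120 ppm in DM. Of the 10 acinar markers, the most abundant pair lay near the values of the abundant secretoglobins: Mucl2, a mucin-like protein and the most abundant gland transcript, kept 2.70 and 7.12 ppm, and the odorant-binding protein Obp1a 2.91 and 5.53 ppm. Car6, a secreted carbonic anhydrase, kept 54.1 and 43.6 ppm, and Lpo, the lactoperoxidase of tears, 594 and 1399 ppm. Others kept far more: Aqp5, the water channel of the acinar cell surface, had 114 to 143 CPM in the glands, 2.66 to 3.54 in EM and 30.5 to 37.6 in DM. In DM, Pigr overlapped the gland range in CPM and Rab27b exceeded it, while on the TMM scale they stood below gland by log2 differences of -1.97 ± 0.21 and -0.99 ± 0.15 (edgeR, adjusted p = 5.36e-06 and 8.88e-05). In EM the same differences were -2.74 ± 0.22 and -2.72 ± 0.16 (edgeR, adjusted p = 4.63e-07 and 3.93e-08). The members' sum was highest in EM library 8 and DM libraries 6 and 7 and at most 12 counts in the other 3. Mucl2 was high in the same libraries, with 2, 0 and 19 counts in EM and 31, 24 and 0 in DM, and so was Obp1a, with 3, 6 and 9 in EM and 18, 15 and 1 in DM. Lpo followed another order, with 12, 16 and 19 in EM and 24, 40 and 46 in DM. Whether gland RNA or reads carried between libraries gave part of these counts was not tested.

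**Figure D5:**
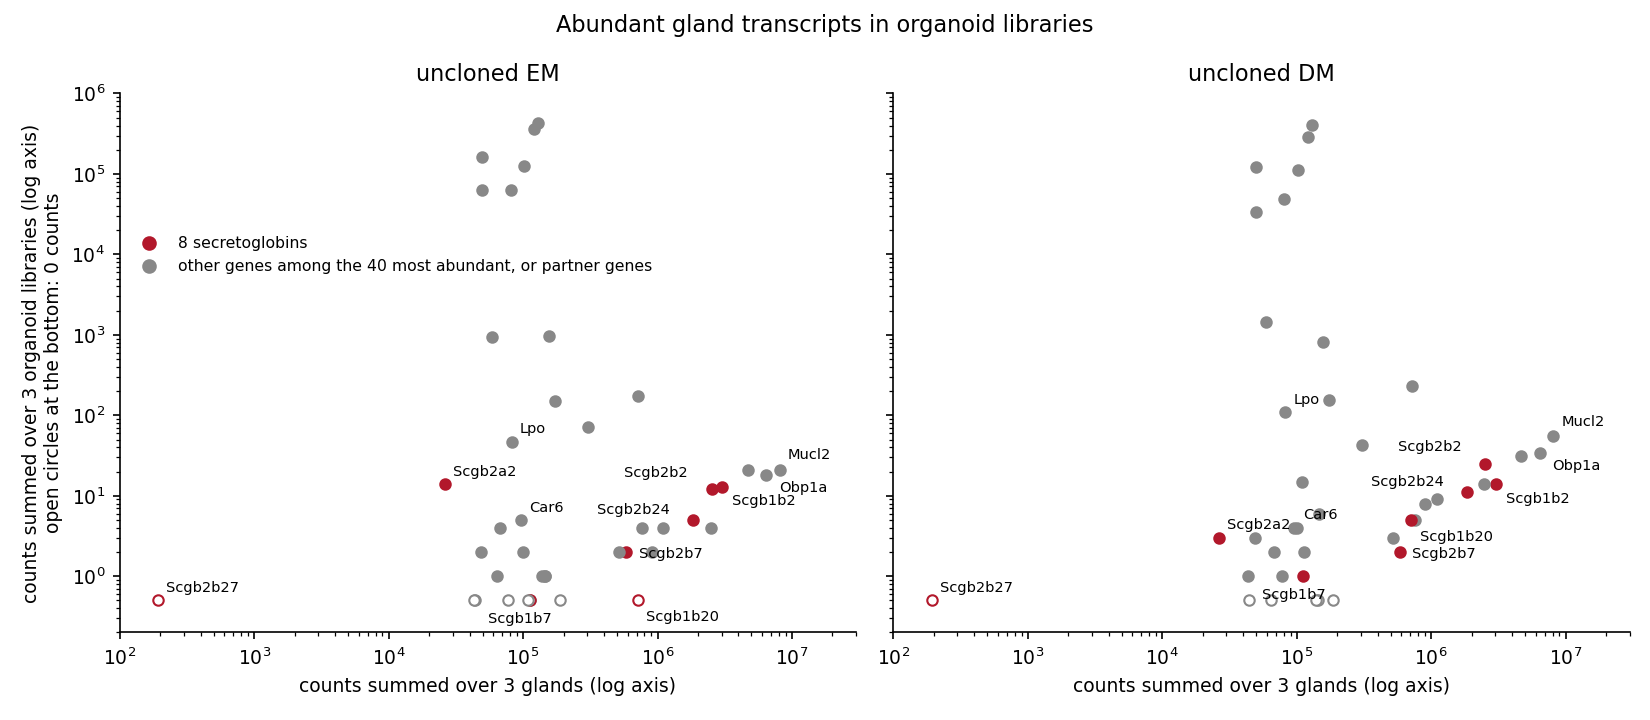
Counts summed over 3 organoid libraries against counts summed over 3 glands (both log axes) for EM (left) and DM (right), for the 8 secretoglobins and the other transcripts most abundant in the gland; open circles at the bottom have 0 counts. The most abundant secretoglobins lie with Mucl2 and Obp1a along a low band, while Scgb2a2, with 14 counts in EM, lies above that band.

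Whether differentiation medium brings tear genes back is asked by DM against EM. The family sum was 1.01 ± 0.987 CPM in EM and 1.40 ± 1.06 in DM (SD, n = 3), a log2 difference of 0.51 ± 0.79 (SE; edgeR, adjusted p = 0.667). DM was higher in line 6 (30 against 3 counts) and line 7 (27 against 12) and lower in line 8 (4 against 31). For all Scgb genes together the difference was 0.05 ± 0.63. Over all genes 13.2% were called lower and 17.2% higher in DM, and of the 8 members only Scgb2a2 was called, as lower, at -1.96 ± 0.67 (adjusted p = 0.0460). That call rests on 14 counts in EM and 3 in DM, and EM library 6, with 1 count, overlaps the DM libraries. It was lost with the line as a block (adjusted p = 0.0631), with DESeq2 (0.0654) and on leaving out any library of the 2 groups other than EM library 6 (adjusted p of 0.0819 to 0.255). Scgb1b20, with 0 counts in EM and 5 in DM, had an adjusted p of 0.142 in edgeR, 0.0474 as higher in DESeq2 and 0.0311 as higher without DM library 8. The other members gave 5 and 11 counts (Scgb2b24), 12 and 25 (Scgb2b2), 13 and 14 (Scgb1b2), 2 and 2 (Scgb2b7), 0 and 1 (Scgb1b7) and 0 and 0 (Scgb2b27) over the 3 EM and the 3 DM libraries. At this depth a difference between media was not detectable for them. The members' median log2 difference was 0.66, beside 0.00 over all genes.

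Some other acinar genes did differ between the media. Of 10 acinar markers, 5 were called higher in DM and none lower, against 17.2% higher and 13.2% lower over all genes. Such calls were not particular to acinar genes. Of the duct and basal list, Krt5, Krt8, Krt14, Krt18 and Krt19 were called higher too, and Krt7 and Trp63 were not called. Aqp5 rose by 3.53 ± 0.14 on the log2 scale (edgeR, adjusted p = 4.88e-07) and Lpo by 1.30 ± 0.30 (adjusted p = 0.00790). Mucl2 and Obp1a stood at 1.48 ± 1.11 and 1.01 ± 0.83 and were not called (adjusted p of 0.347 and 0.397). Outside the 8, Scgb1c1 had more counts in EM than in tissue, but not in DM. It had 1, 0 and 0 counts in the glands, 8, 7 and 6 in EM and 0 in each DM library. It did not pass the filter, and from 3 counts over the group it was at least 6.55-fold lower in DM than in EM with TMM factors and at least 6.95-fold on total counts. It was singled out after its values were seen.

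In the clones, the question is whether the label Pax6 KO or the medium goes with tear gene expression, and the 8 genes gave almost no counts to answer it. Of 160514242 counts in 8 libraries, 1 fell on a member, on Scgb2a2 in WT clone 2 in EM. The other 7 members were at 0 in all 8 libraries. No count in a group of 2 libraries allows a level of up to 0.0736 CPM in WT DM, 0.0785 in EM clones labelled KO and 0.0781 in DM clones labelled KO, and in WT EM 0.0697 for each of the other 7 members. These limits cover counting error only. None of the 8 passed the filter on low counts, so no member was tested among 14282 genes in any of the 5 clone comparisons. Without the filter Scgb2a2 alone could be fitted, with an adjusted p (edgeR) of 0.817 for medium in WT clones and 0.842 for label in EM. All 69 Scgb genes held 15 counts, on 7 genes. Scgb1c1 had the most, with 4 and 0 in WT EM, 1 and 2 in EM clones labelled KO, and 0 in the 4 DM libraries. Mucl2 and Obp1a were at 0 in all 8 clone libraries, while Lpo had 1 to 98 counts in each.

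Genes with the most similar profile to the family sum were sought among 1163 genes of at least 100 CPM in the gland, leaving out Scgb genes and predicted or unnamed genes, by root mean square difference of centred log2 values over the 9 libraries. They were Obp1a (0.39), Obp1b (0.47), Mucl2 (0.74), Dnase1 (1.67) and Pnliprp1 (1.83). Of the predicted genes left out, 4 lay nearer than Pnliprp1 and Dnase1, namely Gm5938 (0.56), Gm1553 (0.88), Gm14743 (1.01) and Gm14135 (1.09), named here after their values were seen. Obp1a and Obp1b encode odorant-binding proteins, Mucl2 a mucin-like protein, Dnase1 a secreted nuclease and Pnliprp1 a pancreatic lipase-related protein. Obp1b had 729165, 768122 and 983963 gland counts, 0, 0 and 4 in EM and 7, 6 and 1 in DM. Dnase1 had 46708, 60508 and 79760 gland counts and none in any of the 6 organoid libraries. Measured the same way, the members' own distances from their sum ran from 0.25 for Scgb1b2 to 3.28 for Scgb2a2 and 6.15 for Scgb2b27. For these low genes the scale reaches its floor in organoids. This is a description over 9 libraries from 3 lines, which are either gland or organoid.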

How the data were processed

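Libraries of polyadenylated RNA were made with a stranded kit, per the labels' protocols. The authors deposited whole-number counts per gene, for which the submitters' processing notes name STAR, featureCounts and the GRCm38 build. Their versions, the strand setting, the treatment of reads with several matches and the annotation release are not given in the sources. The counts are not normalised. The 2 tables list different gene IDs and were analysed separately.

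Ensembl IDs were named through the supplied name table, and positions, exonic and coding lengths came from GENCODE M21. The tests used edgeR 4.0.16 in R 4.3.3. After filterByExpr had taken out scarce genes, library sizes were TMM-scaled (trimmed mean of M-values), and a mean per group was fitted by the quasi-likelihood method with all groups of a table. Calls needed an adjusted p (Benjamini-Hochberg) under 0.05 over all genes tested (13713 and 14282), with 6 and 4 residual degrees of freedom. The SE is the absolute log2 difference over the square root of F. The family sum was fitted as 1 further row beside the single genes, with library sizes and scaling factors as set without it. CPM are counts per 1000000 total counts. A group at 0 is bounded by 3 counts over the group, and groups with 1 to 3 counts have exact 95% Poisson intervals, neither of which covers more than counting error. Replicates are separate lines or clones by their labels, where nothing says whether lines come from separate animals, so p-values measure the spread between these libraries.

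Alternatives were DESeq2 size factors, DESeq2 1.42.0 itself, total-count scaling, no filter, only the groups compared, the sum of all Scgb genes, each library left out in turn and a block on line or clone. Coding length was added after seeing the data. Pairing for the block comes from the labels, where a line or clone keeps its number across media. EM and DM libraries of 1 line deviated together with r of 0.18 (line 6), 0.12 (line 7) and 0.09 (line 8), and those of 1 clone with r of 0.60 (WT) and 0.51 (labelled KO). Named genes were the 8 members, other Scgb genes of at least 1 CPM in a group or with a member's number, the 5 genes nearest in profile that are neither Scgb nor predicted or unnamed genes, and marker genes. Members, lists and rules were chosen with earlier results of these data known. The steps were tested on simulated data. All 17 libraries were used.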

Additional observations from a re-analysis of the deposited data

How the results depend on the processing

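The family sum and the 8 members kept their direction and their side of the threshold against gland, in EM and in DM, under all 242 combinations of result and alternative that were run. Sum and members passed the filter on low counts through the gland. This outcome therefore had to come out this way and carries no weight of its own. Between DM and EM, results on low counts moved. With a block on line, edgeR called 0 of the 8 members in place of 1 (1 had an unadjusted p under 0.05), while the family sum stood at 0.51 (adjusted p = 0.695). Leaving out a library of these groups gave 0 to 1 called members (0 to 3 at an unadjusted p under 0.05), and the 1 call without DM library 8 was Scgb1b20 as higher. DESeq2 also called 1, Scgb1b20 in place of Scgb2a2. The family sum between media ranged from 0.00044 to 1.57 when a library was left out, with adjusted p of 0.172 to 1. Over the same left-out libraries, Scgb1b2 ran from -0.52 to 2.96, turning negative without EM library 6 (-0.34), EM library 7 (-0.31) or DM library 6, and Scgb2b7 from -0.46 to 0.60, turning negative without EM library 7, DM library 6 (-0.33) or DM library 7 (-0.19). These members were not called in any of those fits, and fewer samples enter each. With only EM and DM in the fit no member passed the filter. The block changed no other call. Coding length in place of exonic length moved the alpha over beta/gamma ratio to 1.46 for number 2, 0.234 for number 7 and 0.0748 for number 24, without turning any. In the clones no member passed the filter, and without the filter edgeR gave Scgb2a2 adjusted p of 0.817 to 1 over the 5 comparisons. Depth limits everything said of organoids: a few counts in a library decide whether a member reads as present, and near copies limit the split among Scgb1b7, Scgb1b20, Scgb2b7 and Scgb2b20.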
